A study of Homo sapiens with 9 samples.

Results

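The nuclear genome encodes most subunits of the mitochondrial respiratory chain, and chromatin accessibility at the promoters of 87 of these genes was examined in the human hepatocellular line HepG2, which derives from a liver cancer. The genes were taken from 19229 protein-coding genes of chromosomes 1 to 22 in GENCODE, by symbol: NDUFA, NDUFB, NDUFC, NDUFS and NDUFV for complex I without the NDUFAF assembly factors, SDHA to SDHD for complex II, UQCR for complex III, COX4 to COX8 for complex IV and ATP5 for the ATP synthase, here called complex V. Complex I gave 38 genes, complex II 4, complex III 9, complex IV 16 and complex V 20, with 634 annotated transcript starts in all. A gene was said to have a promoter peak when the summit of an ATAC-seq peak lay within 1 kb of any of its transcript starts. The strongest such peak of each gene was used, which gave 73 distinct peaks of the 69730 in control cells. ATAC-seq uses a transposase to insert sequencing adapters into accessible DNA, and a peak is an interval where reads are more frequent than in the local background.

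HepG2 cells were transfected with 50 nM of a non-targeting siRNA (NTG) or of siINO80#1 or siINO80#2, a pair of siRNAs that target INO80, and were harvested 72 hours later. INO80 provides the ATPase activity of a remodeling complex that slides nucleosomes and exchanges histones. Each siRNA had 3 replicates, labelled A, B and C, for 9 samples. Only 1 peak list stood for each siRNA, so no spread between replicates could be given and no difference was tested. The level of INO80 after knockdown is not measured by these lists.

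Complexes I, III and IV pass electrons from NADH to oxygen and pump protons, complex II feeds electrons from succinate, and complex V lets the protons return to make ATP. Subunits are mostly expressed in all cells, while a few have isoforms restricted to muscle, lung, testis or hypoxic cells. Their promoters are mostly CpG-rich, and the factors NRF1, GABP of the ETS family, YY1, SP1 and CREB are known to bind many of them. YY1 is also known as a subunit of the INO80 complex.

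The promoters that carry the results below are shown with coordinates of GRCh37 (hg19). Each runs from 150 bases before the canonical start to at most 30 bases after it, on the strand of the gene, 5′ to 3′. Capitals mark matches on either strand to NRF1 (GCATGCGC), YY1 (AANATGGC), ETS (CCGGAAG), SP1 (GGGCGG), NF-Y (CCAAT), the cyclic AMP response element CRE (TGACGTCA) or its shorter core (TGACG), which the full CRE contains. ATP5F1B, the catalytic beta subunit of complex V with the strongest NTG promoter peak among the 87 genes, lies on the minus strand at chr12:57039739-57039918. COX6A1 (plus strand, chr12:120875766-120875922) is the gene whose peak held the most kinds of motif, and SDHB (minus strand, chr1:17380498-17380677) is shown for its full CRE. COX5B (plus strand, chr2:98262375-98262554) ranked higher and COX8A (plus strand, chr11:63741942-63742121) ranked lower with both siINO80 siRNAs than in NTG. NDUFB7 (minus strand, chr19:14682849-14683028) had no peak with siINO80#2. COX8C (plus strand, chr14:93813378-93813557), the testis isoform of COX8A, had no peak in any list and its window held no match.

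ATP5F1B: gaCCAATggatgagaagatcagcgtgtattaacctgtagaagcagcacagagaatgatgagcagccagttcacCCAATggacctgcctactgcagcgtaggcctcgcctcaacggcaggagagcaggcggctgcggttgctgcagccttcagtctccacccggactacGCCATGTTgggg
COX6A1: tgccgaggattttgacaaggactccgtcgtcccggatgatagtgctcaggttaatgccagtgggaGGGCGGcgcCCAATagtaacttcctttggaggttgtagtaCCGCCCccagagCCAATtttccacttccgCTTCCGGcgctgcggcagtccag
SDHB: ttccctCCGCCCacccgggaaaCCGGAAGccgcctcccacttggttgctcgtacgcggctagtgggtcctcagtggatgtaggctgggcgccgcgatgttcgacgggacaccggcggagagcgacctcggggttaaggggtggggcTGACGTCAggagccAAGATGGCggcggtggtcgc
COX5B: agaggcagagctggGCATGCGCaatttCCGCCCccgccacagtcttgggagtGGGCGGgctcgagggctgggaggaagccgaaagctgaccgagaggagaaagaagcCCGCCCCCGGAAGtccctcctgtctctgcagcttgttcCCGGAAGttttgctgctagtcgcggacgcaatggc
COX8A: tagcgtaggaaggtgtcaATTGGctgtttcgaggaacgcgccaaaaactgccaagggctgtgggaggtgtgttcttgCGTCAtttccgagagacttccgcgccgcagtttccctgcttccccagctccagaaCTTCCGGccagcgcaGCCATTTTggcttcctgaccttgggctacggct
NDUFB7: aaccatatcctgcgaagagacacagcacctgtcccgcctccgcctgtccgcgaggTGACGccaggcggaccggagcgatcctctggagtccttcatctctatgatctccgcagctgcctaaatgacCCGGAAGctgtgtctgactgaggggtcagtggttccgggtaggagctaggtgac
COX8C: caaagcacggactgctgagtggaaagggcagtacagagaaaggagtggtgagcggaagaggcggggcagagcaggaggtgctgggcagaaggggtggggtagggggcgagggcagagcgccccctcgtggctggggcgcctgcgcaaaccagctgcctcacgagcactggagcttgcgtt

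In control cells, most respiratory chain promoters were accessible. A promoter peak was found in NTG for 74 of the 87 genes, or 85.1% (95% Wilson interval 76.1 to 91.1), against 61.9% of all protein-coding genes. With siINO80#1 the count was 76, or 87.4% (78.8 to 92.8), against 61.4% of all genes. With siINO80#2 it was 68, or 78.2% (68.4 to 85.5), against 54.6% of all genes. The siINO80#2 list was also the shortest, with 53113 peaks against 69333 for siINO80#1. A peak in all 3 lists was found for 68 of the 87 genes, where the share of all protein-coding genes was 52.2%. When the 53113 strongest peaks of each list were used, the shares became 80.5% in NTG, 83.9% with siINO80#1 and 78.2% with siINO80#2, against 56.7%, 56.0% and 54.6% of all genes.

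**Figure D1:**
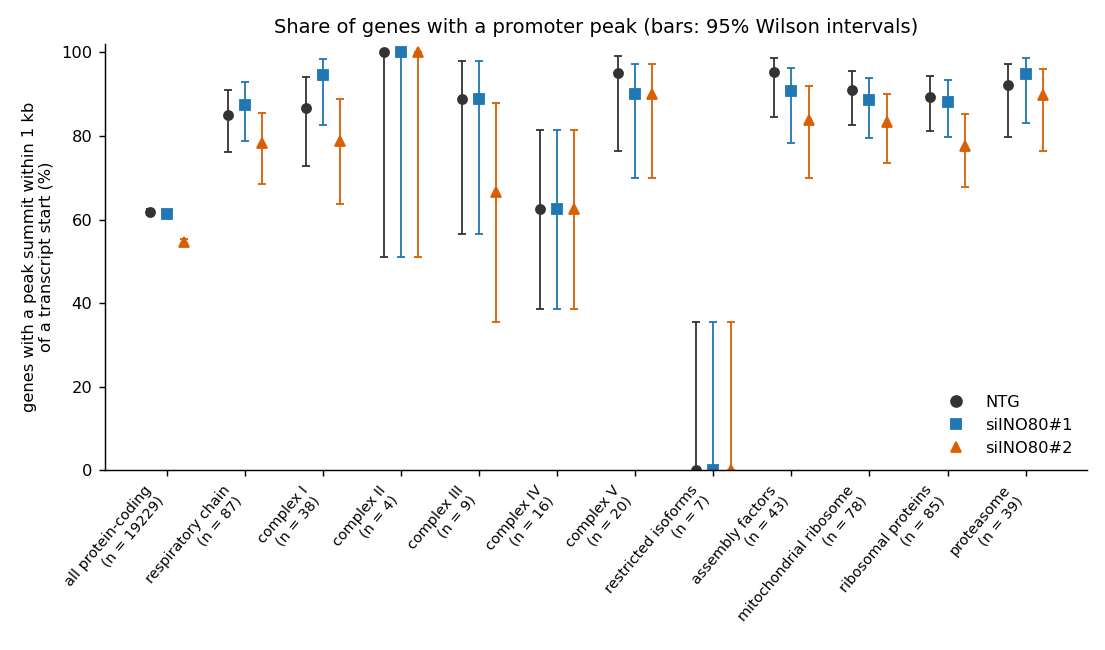
Share of genes with a promoter peak (y axis, percent) in the NTG, siINO80#1 and siINO80#2 lists for the respiratory chain genes, its complexes, related gene groups and all protein-coding genes. Bars give 95% Wilson intervals, which cover counting error only; the respiratory chain genes sit at 85.1%, 87.4% and 78.2%, above all protein-coding genes at 61.9%, 61.4% and 54.6%.

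The same cells had peaks near annotated starts of hepatocyte genes. Of 10 hepatocyte markers, including ALB and APOA1, 10 had a peak in NTG, 9 with siINO80#1 and 8 with siINO80#2. Their median fold enrichment over local background in NTG was 3.81, against 5.35 for all genes with a peak. The strongest NTG summits of ALB (chr4:74269319) and AFP (chr4:74316512) lay inside gene records that begin at 74262831 and 74296855. They may not describe the main starts. ALB had no peak with siINO80#2 and AFP none with either siINO80 siRNA. Of 8 markers of blood, endothelium, nerve and muscle, 1 had a peak in NTG, 2 with siINO80#1 and 0 with siINO80#2. Relative depth, recovered from the values of the peaks, was 1.00 for NTG, 1.43 for siINO80#1 and 1.44 for siINO80#2, so the shortest list did not have the fewest reads. In bulk cells, fewer cells with an open site and a less open site in each cell cannot be told apart.

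The share of open promoters is given by complex. In complex IV, 6 of the 16 genes had no peak in any list, as did 6506 of all 19229 genes. Complex I had a peak at 33 of 38 genes in NTG, 36 with siINO80#1 and 30 with siINO80#2. Its nuclear core, the 7 subunits that hold the redox centres and the quinone site, had 6, 7 and 6. Complex II, which has no restricted isoform, had peaks at all 4 genes in each list. Complex III had 8 of 9 in NTG, 8 with siINO80#1 and 6 with siINO80#2. Complex IV had 10 of 16 (62.5%) in each list, and complex V had 19, 18 and 18 of 20. All protein-coding genes had 61.9%, 61.4% and 54.6%, so the share of complex IV was near that of all genes in NTG.

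The 7 isoforms known to be restricted to other tissues or to hypoxia had no peak in any list. They are NDUFA4L2, COX4I2, COX6A2, COX6B2, COX7A1, COX7B2 and COX8C, and 0 of 7 has an upper Wilson limit of 35.4%. Of all protein-coding genes, 61.9% had a peak in NTG. Among the members, each counterpart that is used in most cells had a peak in all 3 lists. COX7A2 had a fold enrichment over local background of 12 in NTG, 12.2 with siINO80#1 and 11.4 with siINO80#2, where the muscle isoform COX7A1 had none. COX4I1 was the weakest of the open partners in NTG, at 3.07, 2.87 and 3.04. NDUFA4, now known to belong to complex IV although its symbol places it in complex I, had values of 8.81, 9.48 and 8.17. The other 3 genes without any peak were UQCRHL, a copy of UQCRH, ATP5MGL, a copy of ATP5MG, and NDUFA7, an accessory subunit whose start lies 120 bp from that of the ribosomal protein gene RPS28. Without the restricted isoforms, both copies and the 2 readthrough genes, the 76 remaining genes had a peak in 96.1% of cases in NTG, 97.4% with siINO80#1 and 88.2% with siINO80#2. This set was formed after the peaks were seen. The removal lowered the number of genes without any peak from 10 to 1, so the higher shares follow from the choice. No like removal was made for all genes.

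The open promoters varied widely in strength. Strength is given as the within-list percentile, the share of all peaks of a list with a lower fold enrichment than the strongest peak of the gene. The median was 81.9 in NTG (95% order-statistic interval 77.6 to 86.6), 80.3 with siINO80#1 (75.8 to 85.0) and 81.3 with siINO80#2 (73.0 to 88.9). All protein-coding genes with a peak had medians of 79.5, 78.9 and 75.8. In NTG the lowest gene stood at 3.30 and the highest at 99.3, with siINO80#1 they stood at 7.81 and 99.3, and with siINO80#2 at 18.9 and 99.6. In NTG 50 of 74 genes (67.6%) exceeded the 75th percentile, against 57.3% of all genes with a peak.

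**Figure D2:**
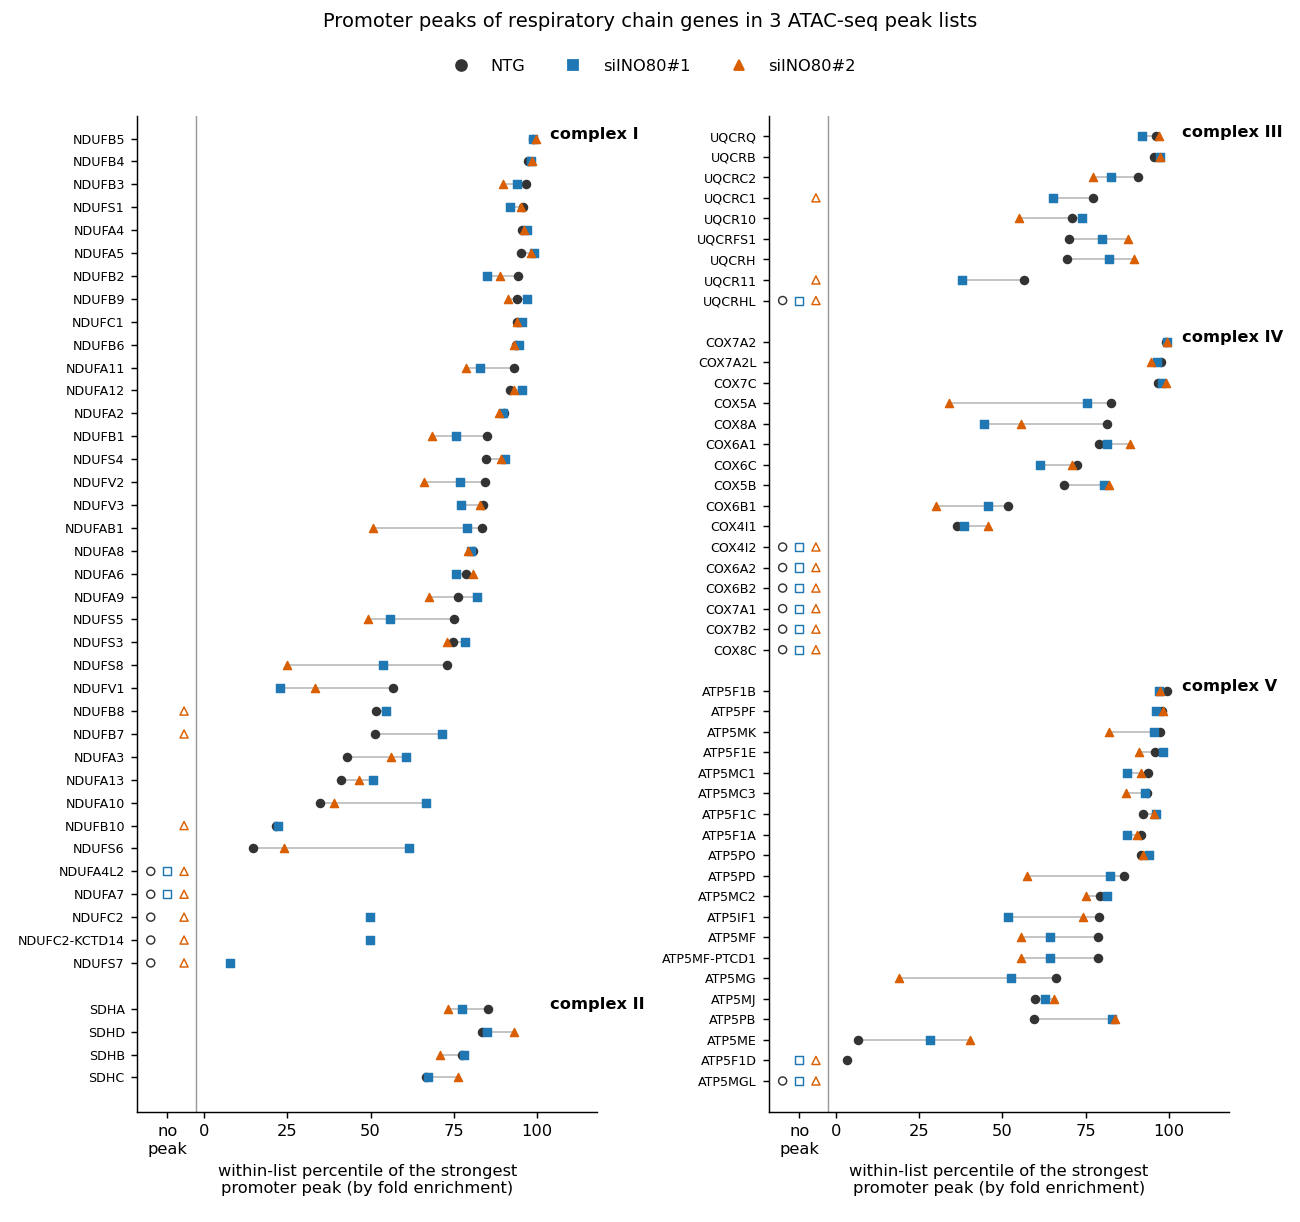
Within-list percentile of the strongest promoter peak (x axis) for the respiratory chain genes reported by name, by complex, with 1 marker for each of the NTG, siINO80#1 and siINO80#2 lists. Open markers at the left stand for genes with no peak in that list, and grey lines join the lists of a gene; COX7A2 and NDUFB5 stay at or above 98.7 in each list, while the 3 markers of COX8A lie at 81.3, 44.4 and 55.5.

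Genes were ordered within each complex by the mean of their percentiles over the 3 lists, among genes with a peak in every list. The highest by this order were ATP5F1B of complex V, NDUFB5 of complex I and COX7A2 of complex IV. ATP5F1B had a fold enrichment of 12.3 in NTG, 9.50 with siINO80#1 and 8.86 with siINO80#2. Its NTG peak covered chr12:57039541-57040166, over the transcript start shown above. NDUFB5, an accessory subunit of the membrane arm of complex I, had values of 11.3, 11.5 and 12.3 at chr3:179322014-179322880. COX7A2, whose values are given above, had its NTG peak at chr6:75953095-75954287. These 3 genes ranked at or above the 97.0th percentile of every list, although single lists had other leaders, such as NDUFA5 over NDUFB5 with siINO80#1.

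In complexes II and III the genes of highest mean percentile were SDHD, a membrane anchor of complex II, and UQCRB, a small subunit near the quinone site. SDHD had a fold enrichment of 5.85 in NTG, 5.77 with siINO80#1 and 7.03 with siINO80#2. UQCRB had values of 8.84, 9.77 and 9.04. The genes of lowest mean percentile in each complex were NDUFS6, SDHC, UQCR10, COX4I1 and ATP5ME. NDUFS6, an accessory subunit of complex I, had values of 2.66, 3.63 and 2.60. SDHC, the other anchor of complex II, had 4.17, 4.0 and 4.57. UQCR10, a small subunit of complex III, had 4.53, 4.52 and 3.33. The median percentile in NTG was 83.8 for complex I, 80.6 for complex II, 74.1 for complex III, 80.1 for complex IV and 86.6 for complex V, with intervals that overlapped.

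The widest NTG peaks belonged to ATP5PF (1842 bp), NDUFC1 (1787 bp) and NDUFS1 (1623 bp). Each of these genes shares its promoter with a gene on the opposite strand: ATP5PF with GABPA at 68 bp, which encodes the DNA-binding subunit of GABP, NDUFC1 with NAA15 at 26 bp, and NDUFS1 with EEF1B2 at 76 bp. The median width over all open members was 822 bp in NTG, 712 bp with siINO80#1 and 714 bp with siINO80#2. All protein-coding genes had median widths of 739 bp, 761 bp and 680 bp.

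The comparison of siINO80#1 with NTG asked which promoters gained or lost a peak. A peak in NTG and not with siINO80#1 was found for 1 of the 87 genes, ATP5F1D, against 4.05% of all genes. ATP5F1D, the delta subunit of complex V, had an NTG peak of 2.34-fold at chr19:1244881-1245052, past the annotated 3′ end of the gene record, and its summit was 894 bp from the nearest transcript start. It therefore does not describe the main start of the gene. A peak with siINO80#1 and not in NTG was found for 3 genes, against 3.58% of all genes. These were NDUFS7, the core subunit of complex I with the last iron-sulfur cluster before ubiquinone, at 2.34-fold, and NDUFC2 with its readthrough gene NDUFC2-KCTD14, which share 1 peak of 3.15-fold.

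The comparison of siINO80#2 with NTG gave more losses. A peak in NTG and not with siINO80#2 was found for 6 genes, against 8.93% of all genes. They were NDUFB7, NDUFB8 and NDUFB10 of complex I, UQCRC1 and UQCR11 of complex III, and ATP5F1D. In NTG and with siINO80#1 respectively, fold enrichments were 3.46 and 4.29 for NDUFB7, an accessory subunit on the intermembrane space side. For UQCRC1, a core protein of complex III, they were 5.10 and 3.89. NDUFB8 had 3.47 and 3.33, NDUFB10 2.72 and 2.57, and UQCR11 3.66 and 2.85. Apart from UQCRC1, at the 77.3rd percentile of NTG, these peaks ranked between the 3.30th and 56.6th, in the lower part of the members' range. With the strongest 53113 peaks of each list, 4 genes were open in NTG and not with siINO80#2, against 5.75% of all genes.

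The gains with siINO80#2 were 0 of 87, where the share of all genes was 1.67%. A peak in NTG and in neither siINO80 list was found for 1 gene (ATP5F1D, as above), where all genes gave 3.26%. No gene had a peak with both siINO80 siRNAs while lacking one in NTG (0 of 87), where all genes gave 0.967%. Each of these shares rests on the same NTG list, so the 2 comparisons are not independent.

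With siINO80#1, the order of the members' promoters stayed close to that in NTG. Among 73 genes with a peak in both lists the median difference in percentile was 0.161 points, against -0.335 for all genes, and Spearman's rho of fold enrichment was 0.870, against 0.885 for all genes. A difference of 20 or more points downward was found for 3 of the 73 genes, against 8.08% of all genes. These were COX8A, the ubiquitous smallest subunit of complex IV, NDUFV1, the core subunit that binds NADH, and ATP5IF1, the inhibitor of ATP hydrolysis by complex V. A difference of 20 or more points upward was found for 5 genes, against 6.04% of all genes. They were NDUFS6, NDUFA10 and NDUFB7 of complex I, and ATP5ME and ATP5PB of complex V.

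With siINO80#2, more members stood lower. Among 68 genes the median difference was -1.39 points, against -3.83 for all genes, and Spearman's rho was 0.817, against 0.859. A difference of 20 or more points downward was found for 12 genes, against 18.9% of all genes. They included NDUFAB1, NDUFS5, NDUFS8 and NDUFV1 of complex I, COX5A, COX6B1 and COX8A of complex IV, and ATP5MF, ATP5MF-PTCD1, ATP5MG and ATP5PD of complex V. ATP5MF and its readthrough gene share 1 peak. A difference of 20 or more points upward was found for 3 genes, UQCRH, ATP5ME and ATP5PB, against 2.49% of all genes. At equal list size the downward count was 5, against 12.2% of all genes, and the upward count 9, against 5.59%, so this balance depended on the length of the lists.

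**Figure D3:**
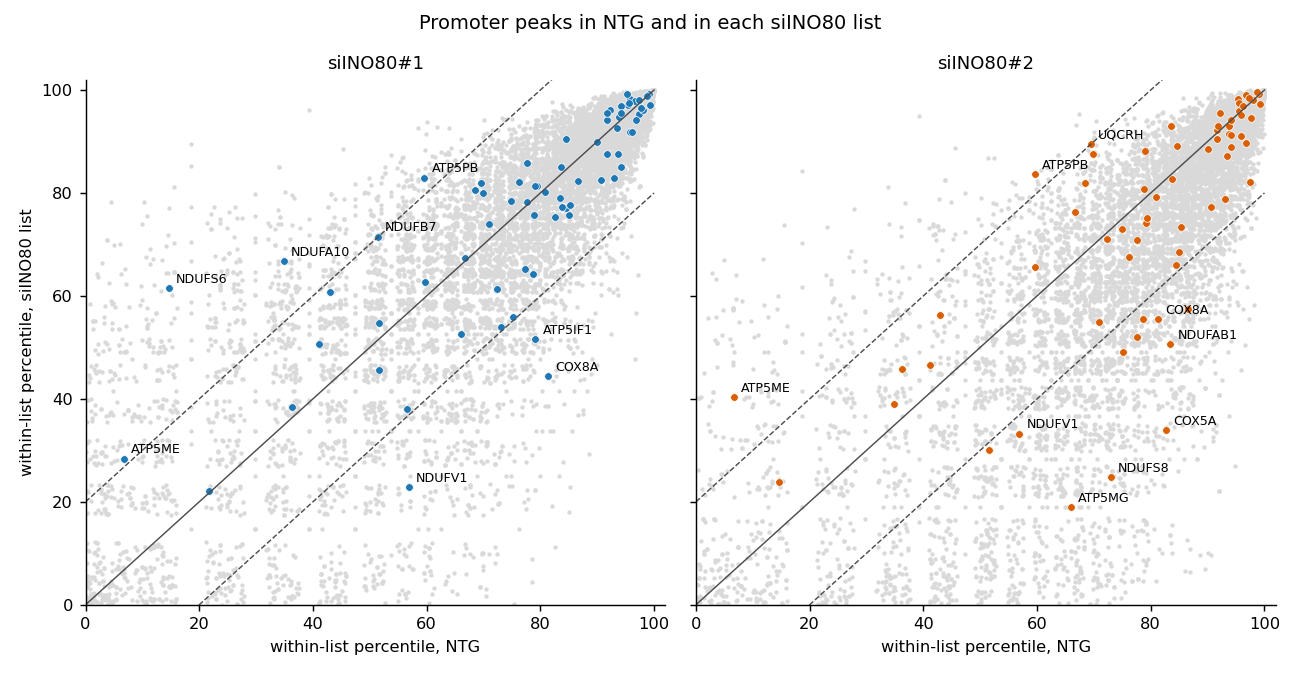
Within-list percentile of each respiratory chain promoter in NTG (x axis) against siINO80#1 (left) and siINO80#2 (right, y axis), with all protein-coding genes as grey points, equality as a solid line and 20 points above and below it as dashed lines. With siINO80#1, 3 genes lie below and 5 above the lines; with siINO80#2, 12 lie below and 3 above.

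The 5 genes that stood lowest against NTG with both siRNAs were COX8A, NDUFV1, NDUFS5, NDUFS8 and ATP5MF-PTCD1. COX8A had a fold enrichment of 5.56 in NTG, 2.98 with siINO80#1 and 3.35 with siINO80#2, or percentiles of 81.3, 44.4 and 55.5. The reads at its summit numbered 37, 30 and 30, over a local background of 5.83, 9.39 and 8.25. Scaled to the genome background of each list, the COX8A reads with siINO80#1 were 0.601 times those in NTG (exact 95% interval 0.358 to 0.999). With siINO80#2 they were 0.580 times (0.346 to 0.965). These intervals cover counting error only. The median ratio of all genes was 0.902 with siINO80#1 and 0.716 with siINO80#2, both inside the COX8A intervals. The COX8A promoter shown above held an ETS match 18 bases and a YY1 match 3 bases before the start.

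NDUFV1 had fold enrichments of 3.67 in NTG, 2.58 with siINO80#1 and 2.78 with siINO80#2. NDUFS8, a core iron-sulfur subunit of complex I, had 4.70, 3.28 and 2.62. NDUFS5, an accessory subunit, had 4.89, 3.40 and 3.16. NDUFV1, NDUFS8 and NDUFS5 were picked for standing lower with both siRNAs, so their shared direction is not a separate result. NDUFS8 had its lowest value with siINO80#2. Of genes with a peak in all 3 lists, 44.1% of members and 45.7% of all genes ranked lower with both siRNAs. Among the 6 core genes of complex I with a peak in the lists compared, the median difference from NTG was -5.68 points with siINO80#1 and -21.0 points with siINO80#2. All complex I genes gave 0.772 and -1.22 points, and all protein-coding genes -0.335 and -3.83. The 6 genes include NDUFV1 and NDUFS8, which were picked for their falls, and the difference was not tested. ATP5MF, subunit f of the membrane part of complex V, had 5.23, 3.80 and 3.36.

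The 5 genes that stood highest against NTG with both siRNAs were ATP5PB, ATP5ME, NDUFA3, UQCRH and COX5B. ATP5PB, the b subunit of the peripheral stalk, had a fold enrichment of 3.76 in NTG, 5.49 with siINO80#1 and 5.30 with siINO80#2. UQCRH, the hinge protein of complex III, had 4.38, 5.35 and 6.24. COX5B, a zinc-binding subunit of complex IV, had 4.35, 5.19 and 5.07. ATP5PB, UQCRH and COX5B were picked for standing higher with both siRNAs, so their shared direction is not a separate result. Of genes with a peak in all 3 lists, 38.2% of members and 23.3% of all genes ranked higher with both siRNAs. The share was 32.8% for the cytosolic ribosome, 31.4% for assembly factors, 28.1% for the mitochondrial ribosome and 25.7% for the proteasome. It was 41.7% for regulators of respiratory genes and 0% for TCA cycle genes. Both comparisons use the same NTG list, so the 2 directions are not independent. The differences between these shares were not tested. ATP5ME, subunit e of complex V, had 2.47, 2.65 and 2.92, and the accessory complex I subunit NDUFA3 had 3.19, 3.58 and 3.39. Scaled to the genome background, however, ATP5PB reads were 1.33 times those in NTG (0.787 to 2.29) with siINO80#1 and 1.16 times (0.682 to 2.02) with siINO80#2. COX5B gave 1.05 (0.660 to 1.67) and 1.07 (0.682 to 1.71). The counting intervals of ATP5PB and COX5B included 1.00.

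Reads at the summit over the genome background gave a measure that does not depend on rank. The median ratio to NTG was 0.908 for the members with siINO80#1 and 0.767 with siINO80#2, while for all genes it was 0.902 and 0.716. A ratio at least 1.5 times lower was found for 5 members with siINO80#1, where all genes gave 10.7%. They were ATP5IF1 (0.566), NDUFB2 (0.596), COX8A (0.601), ATP5F1B (0.627) and NDUFV2 (0.661). With siINO80#2 it was found for 25 of the 68 members, where all genes gave 39.3%. A ratio at least 1.5 times higher was found for 0 members with either siRNA, where all genes gave 1.92% with siINO80#1 and 0.403% with siINO80#2. The counting interval of the ratio included 1.00 for 65 of 73 members with siINO80#1 and 48 of 68 with siINO80#2. This count was not made for all genes, so it cannot be read as particular to the members. Of all genes, 67.4% had a ratio below 1 with siINO80#1 and 91.2% with siINO80#2.

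The lowest ratio with siINO80#2 was that of ATP5MK, a small membrane subunit of complex V, with 68 summit reads in NTG, 72 with siINO80#1 and 39 with siINO80#2. Its ratio to NTG was 0.784 (0.555 to 1.11) with siINO80#1 and 0.410 (0.270 to 0.617) with siINO80#2. COX5A, a matrix-side subunit of complex IV, had 0.762 (0.462 to 1.26) and 0.442 (0.244 to 0.784). ATP5F1B, although at or above the 97.0th percentile in every list, had 0.627 (0.466 to 0.841) and 0.502 (0.367 to 0.684). The highest ratio with siINO80#1 was 1.43 (1.01 to 2.03), for the accessory complex I subunit NDUFA5. When each ratio was divided by the median of all genes, 3 members were at least 1.5 times lower with siINO80#1 (all genes 4.88%) and 2 higher (4.57%). With siINO80#2, 5 were lower (6.06%) and 10 higher (5.05%).

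The position of the peaks differed little between lists. The strongest summit lay a median of 65 bp from the nearest transcript start in NTG, 61.5 bp with siINO80#1 and 49.5 bp with siINO80#2, against 95 bp, 84 bp and 88 bp for all genes. Measured from the 5′ end of the gene record alone, the median was 112 bp in NTG and 89.5 bp with siINO80#2. The summit lay within 150 bp of a transcript start for 74.3% of members in NTG, 81.6% with siINO80#1 and 83.8% with siINO80#2. For all genes the shares were 64.9%, 69.3% and 67.1%. The sets most like the members were near them or higher in NTG. There the share was 77.5% for the mitochondrial ribosome, 77.8% for the proteasome, 90.2% for assembly factors and 71.1% for the cytosolic ribosome. Their median distances in NTG were 79 bp, 72 bp, 60 bp and 94.5 bp. The summit was upstream of the start for 74.3%, 75% and 73.5% of members, against 67.2%, 69.1% and 68.8% of all genes. In NTG this share was 82.9% for the cytosolic ribosome, 88.9% for the proteasome and 66.2% for the mitochondrial ribosome. In 1 of 73 genes with siINO80#1 (NDUFA13, by 445 bp) and 1 of 68 with siINO80#2 (NDUFC1, by 5455 bp) the strongest peak was a different interval from that of NTG, against 6.80% and 6.71% of all genes.

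**Figure D4:**
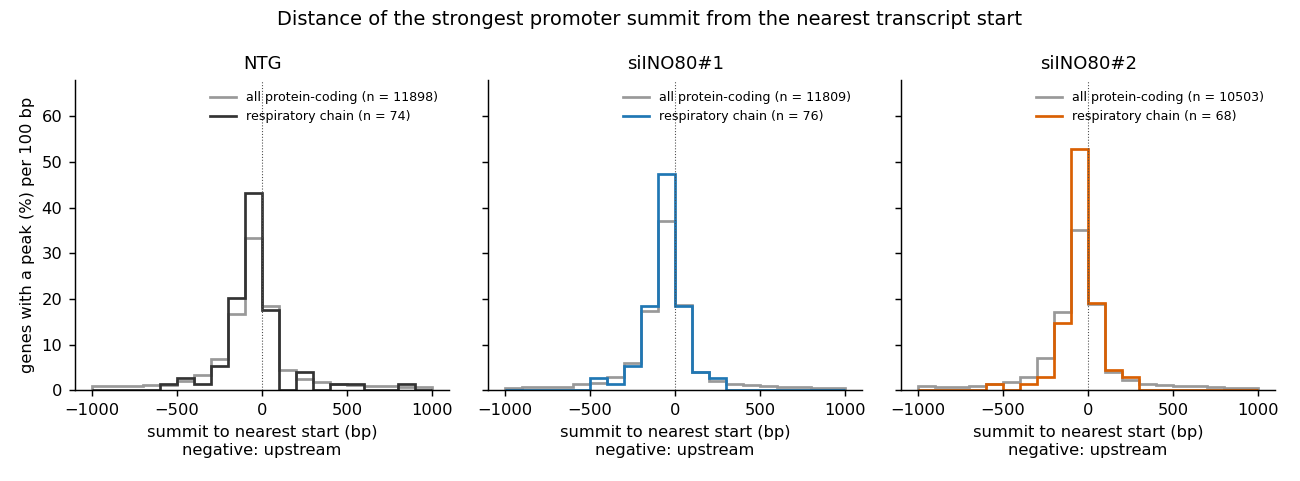
Distance of the strongest promoter summit from the nearest transcript start (x axis, bp, negative upstream) in each list, as the share of genes with a peak per 100 bp (y axis, percent), for respiratory chain genes and all protein-coding genes. The highest step of both distributions is the 100 bp upstream of the start; the members' median distance is 65 bp in NTG.

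An opposite-strand transcript start within 1 kb upstream was annotated for 44 of the 87 genes (50.6%), against 32.3% of all genes, and for 35.6% against 16.4% when the neighbour had to be protein-coding. Within 1 kb the share was 65.1% for assembly factors, 69.2% for TCA cycle genes, 47.4% for the mitochondrial ribosome and 45.9% for the cytosolic ribosome. For 3 of the genes described above the neighbours were MRPL47 beside NDUFB5 at 41 bp, MRPL36 beside NDUFS6 at 41 bp and TIMM8B beside SDHD at 26 bp. Of the 44 genes with such a neighbour, 43 (97.7%) had a peak in each list, NDUFA7 being the exception. Of the 43 without a neighbour, 31 (72.1%) had a peak in NTG, 33 (76.7%) with siINO80#1 and 25 (58.1%) with siINO80#2. All 7 restricted isoforms were among these 43. The same split over all genes gave 82.2% and 52.2% in NTG, 82.4% and 51.4% with siINO80#1, and 75.4% and 44.7% with siINO80#2. A peak between such starts cannot be assigned to either gene.

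Motif content was set against all promoters in 200 bp around the strongest summit, for 77 members and 12723 genes of all. YY1 matched in 15 member windows, or 19.5% (12.2 to 29.7), against 5.42% of all windows. NRF1 matched in 8, or 10.4% (5.36 to 19.2), against 2.78%. ETS matched in 16, or 20.8% (13.2 to 31.1), against 13.8%. The YY1 and NRF1 intervals lay above the value of all windows, and the ETS interval did not. SP1 matched in 46.8% against 53.6%, NF-Y in 28.6% against 29.7%, the full CRE in 1.30% against 1.60%, its core in 29.9% against 24.3%, and AP-1 (TGAGTCA) in 1.30% against 3.60%. In the 72 windows of mitochondrial ribosomal protein genes, YY1 matched in 11.1% and NRF1 in 6.94%, with intervals that overlapped those of the respiratory chain. Proteasome genes gave 16.2% for YY1, 2.70% for NRF1 and 29.7% for ETS, and assembly factors gave 14.3%, 7.14% and 23.8%. Their YY1 and NRF1 intervals also overlapped those of the respiratory chain. In the RefSeq promoter window, from 250 bases before to 50 after the start, YY1 matched in 29.4% of members against 8.02% of all genes, NRF1 in 19.1% against 4.18% and ETS in 27.9% against 14.6%. The mitochondrial ribosome had higher shares than the members for YY1 (36.2%) and ETS (42%) in that window and a lower share for NRF1 (8.70%). A match describes letters only and does not show binding.

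**Figure D5:**
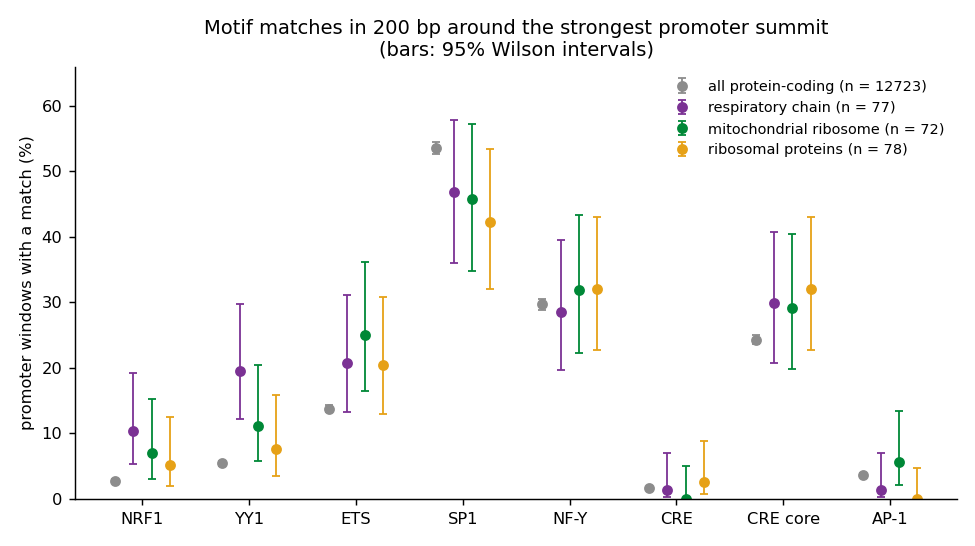
Share of windows of 200 bp around the strongest promoter summit with a match to each motif on either strand (y axis, percent) for 77 respiratory chain windows, 72 of mitochondrial and 78 of cytosolic ribosomal protein genes, and 12723 of all protein-coding genes, with 95% Wilson intervals as bars. YY1 (19.5% against 5.42%) and NRF1 (10.4% against 2.78%) stand above all genes, while SP1 and NF-Y do not.

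The NRF1 matches were those of NDUFA8, NDUFB4, SDHB, UQCRC2, COX6A1, ATP5F1C, ATP5MC2 and ATP5ME, so each of the 5 complexes held at least 1. COX6A1 was the gene with matches to NRF1, YY1, ETS, SP1 and NF-Y in its summit window. The YY1 matches included NDUFB5, NDUFS5, SDHC, UQCRH, UQCRC1 and ATP5PF. Members with a YY1 match had a median percentile of 77.6 in NTG, 75.8 with siINO80#1 and 76.3 with siINO80#2. Members without a YY1 match had medians of 84.5, 80.6 and 82.1. Over all genes the order was the other way, at 80.1, 79.8 and 78.7 with a match and 79.5, 78.9 and 75.7 without. The median difference from NTG was 0.161 points with siINO80#1 and 0.0529 with siINO80#2 for the members with a match, and 0.278 and -1.40 for those without. For all genes it was 0.0141 and -2.62 with a match, and -0.372 and -3.96 without.

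In the promoter windows shown above, SDHB had a full CRE beginning 4 bases before the start and an ETS match 128 bases before it. COX5B had an NRF1 match 136 bases and ETS matches 37 and 5 bases before the start. NDUFB7 had an ETS match 24 bases before it. ATP5F1B had NF-Y matches 148 and 77 bases before its start and a YY1 match on the opposite strand 18 bases after it. The closed COX8C window, with a GC content of 66.1%, held none.

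Across members with a peak, Spearman's rho between GC content from 250 bases before to 50 after the start and fold enrichment was -0.288 in NTG (n = 74), -0.362 with siINO80#1 (n = 76) and -0.308 with siINO80#2 (n = 68). Over all genes with a peak it was -0.131, -0.126 and -0.138. The presence of a peak ran the other way over all genes, with an NTG peak at 28.9% of genes below 50% GC and 73.2% of genes at 60 to 70% GC. Among the members an NTG peak was found at 7 of 10 genes and 28 of 34 genes in these classes. It was found at 29 of 31 members at 50 to 60% GC and 10 of 12 from 70%, against 59.0% and 69.2% of all genes. Median GC content was 59.2% for members with a peak in all 3 lists and 62.0% for those with none. For all genes these medians were 65.3% and 57.7%. The 12 members on chromosome 19 had a peak in 8 cases in NTG, 8 with siINO80#1 and 5 with siINO80#2. The 75 members elsewhere had 66, 68 and 63. Of all genes a smaller share also had a peak on chromosome 19, with 47.2%, 48.1% and 39.1% on chromosome 19 and 63.1%, 62.5% and 55.9% elsewhere. The median GC content of the members was 65.3% on chromosome 19 and 59.0% elsewhere, while for all genes it was 63.3% and 63.7%. The part of base composition in the siINO80#2 values was not tested.

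Genes that work with the respiratory chain were read in the same way. Of 43 assembly factors, which insert cofactors and join subunits, 41 had a peak in NTG, 39 with siINO80#1 and 36 with siINO80#2. The complex I factor TIMMDC1 had fold enrichments of 16.4, 14 and 12, and TMEM126B, another complex I factor, had 11.4, 13.9 and 14.6. SCO2 and COA3, assembly factors of complex IV, had a peak in NTG alone. CYCS, the electron carrier cytochrome c, had 7.71, 10.4 and 7.89. Of 13 regulators of respiratory genes, 12, 13 and 12 had a peak. Among these, TFB2M, a mitochondrial transcription factor, had 13.4, 10.9 and 9.18, SP1 had 9.62, 6.55 and 4.69, and YY1 had 5.02, 5.55 and 3.88. All 13 TCA cycle genes had a peak in each list, led by the fumarase gene FH with 15.5, 15.0 and 16.2.

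Other housekeeping sets had similar shares. Of 78 mitochondrial ribosomal protein genes, 71 (91.0%) had a peak in NTG, 69 (88.5%) with siINO80#1 and 65 (83.3%) with siINO80#2. The 85 cytosolic ribosomal protein genes had 76 (89.4%), 75 (88.2%) and 66 (77.6%). The 39 proteasome genes had 36 (92.3%), 37 (94.9%) and 35 (89.7%). In NTG the median percentile was 81.2 for the mitochondrial ribosome, 75 for the cytosolic ribosome and 80.2 for the proteasome, beside 81.9 for the respiratory chain. The intervals of these shares overlapped those of the respiratory chain genes in every list.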

How the data were processed

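ATAC-seq was performed in 9 HepG2 samples, 3 for each of 3 siRNAs, and the authors deposited 1 MACS-type narrowPeak list for each siRNA; values per replicate were not used here. Fold enrichment, as deposited by the authors, is the ratio of summit reads to local background from their peak caller, and the deposited p and q are −log10 values, the lowest −log10 q being 1.30. The submitters' processing notes name Trim Galore 0.4.1, Bowtie2, SAMtools, MACS2, deepTools 2.2.4 and hg19; settings and the handling of the transposase offset are not given in the sources used here. Peak numbering skipped 324, 371 and 334 numbers in NTG, siINO80#1 and siINO80#2, so lists were filtered after calling. No summit lay beyond a chromosome end of GRCh37.

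Each list was matched to transcript starts of GENCODE 44 lifted to GRCh37. Whole reads and local background were solved from fold and −log10 p (error at most 0.00121) under the MACS2 formulas, and the lowest local background of a list (3.82, 5.16 and 5.34) was its genome background. Sequences came from GRCh37, and 68 of the 87 genes matched the RefSeq promoter table (GRCh38.p14). Intervals are 95% Wilson, order-statistic or exact binomial and cover counting error only, since reads without molecular identifiers are not independent molecules. No test was made, because each group had 1 list.

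Named genes were those without a peak in at least 1 list, the 5 largest differences in each direction shared by both siRNAs, the highest and lowest of each complex, isoform pairs and the 3 widest NTG peaks; members past 20 points, 1.5 times or holding a motif are also named. A gene counted in the sums is not reported here by name. Members and lists were chosen with earlier results of these data known. Alternatives covered the peak threshold, list size, distance, starts, ranking measure, shift size, motif window and neighbour type; the ratio to genome background and the set without restricted isoforms were added after seeing the data. The methods were tested on simulated data. The analysis ran in Python 3.11.15 with scipy 1.17.1, pandas 2.3.3, numpy 2.4.6, matplotlib 3.10.9 and pysam 0.24.0.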

Additional observations from a re-analysis of the deposited data

Results flagged for a closer look

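The number of respiratory chain genes with a promoter peak lay on opposite sides of NTG with the 2 siRNAs against INO80. It was 2.00 higher than in NTG with siINO80#1 and differed from NTG by -6.00 with siINO80#2. NDUFC2 and NDUFC2-KCTD14, which gained a peak with siINO80#1, share it, and ATP5MF and ATP5MF-PTCD1 share a peak in every list. Counting the strongest peak of each gene and shared peaks only 1 time, the numbers were 73 in NTG, 74 with siINO80#1 and 67 with siINO80#2. All protein-coding genes with a peak numbered 11898, 11809 and 10503. This was 1 of 4 summary measures examined for opposite directions. With 1 list for each siRNA the difference between the siRNAs was not tested, and the siINO80#2 list was also the shortest.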

How the results depend on the processing

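No paired analysis was possible because each list pools the replicates, so leaving out replicates and a replicate block were not run. Of 153 alternative values, 101 stayed within the counting interval or 1.5 times of the reported value and 52 moved. The cause was not tested unless the alternative itself sets it. Counts of members at other peak thresholds, distances, starts, rankings and shift sizes have no share of all genes beside them. They cannot be read as particular to the members.

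With peaks of −log10 q of at least 5, NTG had a peak at 74.7% of the genes, 3 genes were open in NTG and in neither siINO80 list, 3 in NTG and not with siINO80#1, and 4 with both siINO80 siRNAs but not in NTG. Median percentiles were 65.9, 61.5 and 69.5 in NTG, siINO80#1 and siINO80#2, 8 genes were 20 or more points lower with siINO80#1, and 7 were higher with siINO80#2. At equal list size, 0 genes were open in NTG and in neither siINO80 list and 2 with both siRNAs but not in NTG, the siINO80#1 median was 75.6, 5 genes were lower with each siRNA and 9 higher with siINO80#2. With the 5′ end of the gene record alone, shares were 73.6% in NTG and 78.2% with siINO80#1, 0 genes were open in NTG and not with siINO80#1 or with neither siRNA, and the median summit distance was 112 bp in NTG and 89.5 bp with siINO80#2.

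With intervals in place of summits, 2 genes were open with both siRNAs but not in NTG. Within 500 bp, 1 gene was, with 0 open in NTG and in neither siINO80 list and 0 in NTG and not with siINO80#1; within 2.5 kb each of these 3 counts was 2. Ranking by −log10 q left 3 genes higher with siINO80#1 and 1 with siINO80#2. Ranking by reads over genome background gave 1 lower and 1 higher with siINO80#1, and 5 lower and 0 higher with siINO80#2. At 10 points, 12 were lower and 9 higher with siINO80#1, and 19 lower and 6 higher with siINO80#2; at 30 points, 2 were higher with siINO80#1, and 4 lower and 1 higher with siINO80#2. Ratios divided by the median of all genes gave 3 lower and 2 higher with siINO80#1, and 5 lower and 10 higher with siINO80#2.

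In the RefSeq promoter window, SP1 matched in 60.3% of the genes, the full CRE in 7.35% and AP-1 in 0%. Protein-coding neighbours alone gave 35.6%. Without restricted isoforms, copies and readthrough genes, shares were 96.1%, 97.4% and 88.2%, a rise that follows from removing genes seen to have no peak.

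Depth was recovered and not reported by the lists. A promoter without a peak may be open below the calling threshold, since summit reads at the weakest peaks of the lists were 12, 14 and 15. With 15 to 141 reads at the summits of the members, the counting interval of the ratio to NTG included 1.00 for 65 of 73 genes with siINO80#1 and 48 of 68 with siINO80#2. The same count was not made for all genes.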

Other observations

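The X-linked subunit genes, outside the chromosomes used for the members, were also open. NDUFB11, an accessory subunit of complex I, had a fold enrichment of 6.64 in NTG, 6.82 with siINO80#1 and 4.10 with siINO80#2. COX7B, a subunit of complex IV, had 5.60, 5.76 and 5.23. NDUFA1, a small membrane subunit of complex I, had 5.40, 5.52 and 6.63. The value of NDUFB11 was lowest and that of NDUFA1 highest with siINO80#2.

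The gene of ESRRA, a nuclear receptor that acts on respiratory genes with PGC-1 coactivators, had a weak promoter peak of 2.09-fold in NTG, 2.92-fold with siINO80#1 and 2.08-fold with siINO80#2. Its coactivator genes differed among themselves. PPARGC1A had fold enrichments of 6.96, 7.63 and 7.75, PPARGC1B had 2.34, 2.46 and 3.22, and PPRC1 had 7.57, 5.50 and 4.58. POLRMT, the mitochondrial RNA polymerase, had a peak with siINO80#1 alone, at 2.84-fold.

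Among the assembly factors, COX11 and SDHAF3 had higher values in each siINO80 list than in NTG, with 6.50, 9.09 and 8.42 for COX11 and 6.38, 8.35 and 8.16 for SDHAF3. The complex I factors NDUFAF3 and NDUFAF8 had lower values in each, with 5.29, 3.71 and 2.5 for NDUFAF3 and 4.71, 3.23 and 2.85 for NDUFAF8. UQCC2, a complex III factor, had 3.48, 2.72 and 2.26. These genes were picked after their values were seen.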
